A study of Mus musculus with 3 samples.

Results

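The parental Lewis lung carcinoma line, LLC/luc P, was described here from its own array, 1 of the 3 arrays of the series. Each of 19053 mouse genes was read on it from the probe with the highest intensity on this array, and genes were ranked by that intensity. Lewis lung carcinoma (LLC) arose spontaneously in the lung of a C57BL mouse and is widely grafted into C57BL/6 mice as a lung cancer that the host does not reject as foreign. LLC/luc carries the luciferase gene, so that tumors can be followed by bioluminescence in living mice, and the study bought the line commercially. The strain background is C57BL/6 for all the lines, and all were kept in DMEM with fetal bovine serum. The other arrays hold LLC/luc BM1st and LLC/luc BM2nd, sublines recovered from bone lesions after the first and the second round of in vivo selection. The cell type field names osteotropic cells for every array, the parental one included, while its subtype field marks the parental line. Each line had 1 array, so no value has a replicate error, no test was possible, and the sublines' values are given only side by side.

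A carcinoma is by definition of epithelial origin, and epithelial cells are held together by E-cadherin junctions over a keratin network. Carcinoma cells that have passed through an epithelial to mesenchymal transition carry vimentin filaments and transcription factors of the ZEB, SNAIL and TWIST families instead. Mature lung epithelium is known by surfactant proteins in alveolar type 2 cells and by secretoglobins in club cells. A tumor cell in bone meets chemokines, growth factors and a collagen-rich matrix, so that the ligands, receptors and matrix genes a line carries before selection describe its starting point.

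The promoters of 4 genes are shown first, since the shares of promoter features given further on are read from such windows. Each stretch runs from 120 bases before to 30 bases after the RefSeq start in GRCm38.p6, 5′ to 3′ on the gene's strand, which is the plus strand for each gene shown. Capitals mark CG dinucleotides and the TATAAA word. Rps2, which encodes a protein of the small ribosomal subunit, had the brightest named probe, and its promoter is at chr17:24719943-24720092. Vim, the vimentin gene and the mesenchymal marker of the line, lies at chr2:13574191-13574340. Sftpb encodes surfactant protein B and stands for the lung markers within background, with its window at chr6:72304490-72304639. Alb, the serum albumin gene of hepatocytes, stands for genes of other tissues within background and lies at chr5:90460750-90460899.
Rps2: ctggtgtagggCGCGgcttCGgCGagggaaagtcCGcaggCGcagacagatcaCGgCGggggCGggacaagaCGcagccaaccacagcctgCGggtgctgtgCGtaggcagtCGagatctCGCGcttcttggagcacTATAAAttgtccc
Vim: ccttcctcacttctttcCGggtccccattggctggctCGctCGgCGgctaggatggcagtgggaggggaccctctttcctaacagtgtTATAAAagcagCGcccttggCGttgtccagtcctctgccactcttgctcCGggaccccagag
Sftpb: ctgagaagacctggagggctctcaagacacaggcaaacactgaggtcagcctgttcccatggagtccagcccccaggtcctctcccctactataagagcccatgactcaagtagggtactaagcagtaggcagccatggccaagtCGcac
Alb: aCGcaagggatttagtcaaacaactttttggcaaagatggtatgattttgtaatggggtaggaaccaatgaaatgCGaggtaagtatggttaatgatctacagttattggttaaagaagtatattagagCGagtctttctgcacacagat
The stretches held 15 CG dinucleotides for Rps2, 7 for Vim, 1 for Sftpb and 3 for Alb. TATAAA began 32 bases before the start of Vim and at base 18 after the start of Rps2. The parental intensities of these 4 genes were 53645 for Rps2, 8296 for Vim, 94.0 for Sftpb and 95.3 for Alb.

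Intensity was set against probes for genes that a cultured carcinoma line has little use for. These were 1504 probes for olfactory receptors (Olfr) and vomeronasal receptors (Vmn), which serve smell in sensory neurons. Their 95th percentile on the parental array, 109.5, was taken as background, and it was 109.8 on the BM1st and 107.2 on the BM2nd array. The receptor probes ran from 63.1 to 209 with a median of 92.8. Of the 19053 genes, 9695 (50.9%) lay above background, 8548 (44.9%) above the 99th percentile of the receptor probes (119), and 2335 (12.3%) above 10 times background (1095), called bright here. By construction some receptor genes pass: 76 of 1249 receptor genes (6.08%) were above background, 16 were above the 99th percentile and 0 were bright. The median gene read 110.5 and the upper quartile began at 374. The genes nearest the background were Pnpla5 and Olfr272 just inside, at 109.479 and 109.484, and Gcgr and Igfbp5 just outside, at 109.477 and 109.471.

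**Figure D1:**
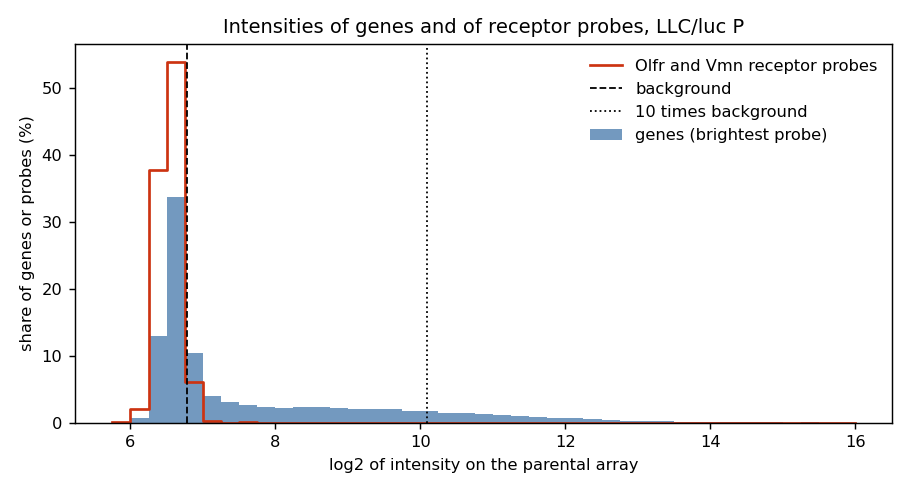
Share of the 19053 genes (bars, brightest probe of each) and of the 1504 receptor probes (line) in bins of log2 intensity on the parental array, with background dashed and 10 times background dotted. Receptor probes form a narrow peak that ends near background, and the genes share that peak but have a long upper tail, with 12.3% beyond the dotted line.

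Closeness to background went with how often a call held on the sublines' arrays. All 2335 bright genes were also above background on both other arrays. The same was true of 5876 of the 6213 genes between the 99th percentile and 10 times background (94.6%), but of 415 of the 1147 genes between background and the 99th percentile (36.2%). Counting all, 8626 of 9695 genes (89.0%) were above background on the 3 arrays and 414 (4.27%) on the parental array alone. The sorted values of the arrays were nearly the same, as after joint quantile normalization, so this is no independent repeat. Intensity also depends on the probe. Single genes used by dividing cells read as background, among them Sdha (102), a subunit of succinate dehydrogenase, Ccna2 (94.9), the cyclin of S phase, and Bub1 (97.8), a kinase of the spindle checkpoint. Low intensity of 1 gene is therefore given as a value, not as absence, and the ranks are ranks of intensity. The RNA came from bulk culture, so that fewer cells with a transcript and less of it per cell cannot be told apart.

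The 30 brightest genes were mostly parts of the translation machinery. They held 22 genes of cytosolic ribosomal proteins, led by Rps2 (53645), Rplp1 (50328), Rps29 (49799.6), Rpl41 (49054) and Rps9 (48337), followed by Rps12, Rps19, Rpl35, Rpl9, Rpl38, Rpl12, Rps26, Rps7, Rpl37, Rpl31, Rpl3, Rps4x, Rps14, Rpl10a, Rps3, Rpl23 and Rpl27. Elongation factors accounted for Eef1a1 (51074), which brings aminoacyl-tRNA to the ribosome, and Eef1g (36004). The remaining members were Fth1 (44749), the heavy chain of the iron store ferritin, Mt1 (41409), the metal-binding metallothionein, Ppia (39981), cyclophilin A, and Atp5b (36486), the beta subunit of ATP synthase. CYTB (39733), the cytochrome b gene of the mitochondrial genome, and Mif (31947), a secreted cytokine, completed the group. Ribosomal protein genes and Eef1a1 have many processed copies in the mouse genome, and their probes can read several of these.

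In lineage terms the parental line held keratins of simple epithelium together with a broad set of mesenchymal genes. Krt18 and Krt8, the keratin pair of simple epithelia, were bright, and so were Vim, the receptor tyrosine kinase gene Axl, and Fn1, which encodes fibronectin. The surfactant genes and Nkx2-1 lay within background. All lists of genes used here were chosen with earlier results of these data known, so their shares are descriptions and were not tested. Over all lineage lists 107 of 207 genes (51.7%) were above background, close to the 50.9% of all genes, and the lists differed. The mesenchymal list gave 20 of 23 genes above background (87.0%) and 7 bright (30.4%, against 12.3% of all genes), with a median of 734. The epithelial list gave 11 of 26 (42.3%) and a median of 105, and the lung list 7 of 22 (31.8%) and a median of 99.97.

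The epithelial list combined bright keratins with low junction genes. Krt18 read 2025 on the parental array, against 2280.1 on BM1st and 1274 on BM2nd. Krt8 read 1381, 997 and 2509 on the same arrays, although only 1 of its 2 probes was above background and the other read 94.1. Cdh1, which encodes E-cadherin, read 121, 116 and 125, just above background on each array and with 1 of its 2 probes. The other markers that define the list lay within background, with Epcam at 86.5, Krt19 at 76.9 and the epithelial splicing regulator Esrp1 at 92.5. Tjp1 (310.3), which encodes the junction scaffold ZO-1, Ovol2 (174), a repressor of mesenchymal genes, and the plakophilin gene Pkp3 (132) were the next brightest members. Of 45 keratin genes on the array, 7 were above background (15.6%, against 50.9% of all genes) and only Krt18 and Krt8 were bright.

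Lung identity rested on few genes. Of the 5 markers that define lung epithelium, only Ager was above background, at 134 on the parental, 139.9 on the BM1st and 128 on the BM2nd array. Nkx2-1, the transcription factor of lung development, read 95.1, Sftpb 94.0, Sftpc 85.2 and Scgb1a1 96.1. With 4 of the 5 defining markers within background, the lung origin that the label gives was not visible in them. Abca3, the lipid transporter of surfactant storage organelles, was the brightest gene of the list with 980.3, 1196 and 1228 on the 3 arrays and 2 of 3 probes above background. Hopx, an alveolar type 1 homeodomain gene, read 189, 467 and 347. Napsa (133), Foxj1 (119), Aqp5 (118) and Foxa2 (111) were above background by small margins. Among neuroendocrine genes Eno2, a neuronal enolase that many proliferating cells also carry, read 608, Ncam1 165, Uchl1 128 and Insm1 121, while Syp, for synaptophysin, was at 109.6 and Chga, for chromogranin A, at 89.2.

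Mesenchymal genes gave the highest values among the lineage lists. The 5 defining members were all above background on every array. Vim read 8296, 7296 and 10577 on P, BM1st and BM2nd, which on P was 75.8 times background. Zeb1, a repressor of E-cadherin, read 1015, 1158 and 1286 with 1 of 2 probes above background on P, and Twist1 read 873, 825 and 706. Prrx1, a homeobox gene of limb and craniofacial mesenchyme, read 649, 606 and 580.1 with 4 of 6 probes above background. N-cadherin (Cdh2) was the weakest at 117, 132 and 117. The 5 brightest members were Lgals1 (28634), which encodes galectin-1, Axl (9236), Vim, the tropomyosin gene Tpm1 (6781) and Fn1 (5860.2). Twist2 (3695), Snai2 (1012), Zeb2 (306) and Snai1 (208) were above background as well, so that every ZEB, SNAIL and TWIST gene of the list had signal. Of these, Zeb2 rested on 2 of 5 probes and Snai1 on 1 of 2. Contractile and actin-binding genes of the list went both ways: Tpm2 (643), Cnn2 (491), Cald1 (302) and Acta2 (129) were above background, and Cnn1 (93.2), Myl9 (92.0) and Tagln (85.2) were the 3 members of the list that were not.

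Fibroblast identity was not complete either. Of 18 stroma genes 6 were above background (33.3%, against 50.9% of all genes). Pdgfra was the only defining member among them, at 258, 851 and 1068, while Pdgfrb read 94.2 and Fap 99.1. Dcn, for the small proteoglycan decorin, read 1027, 6259 and 6174, and the endoglin gene Eng read 415, 259.7 and 347. Lum, for lumican, a collagen-binding proteoglycan that the study is about, read 198 on the parental array with both of its probes above background, 1.81 times background, against 1742 and 6133 on the sublines' arrays. Dpt, for dermatopontin, read 142, 418 and 2213. On the parental array Dcn was thus 9.38 times background and Lum and Dpt were nearer to it, and each of these matrix genes was lowest on P. Of 18 muscle genes only Smtn, a smooth muscle cytoskeletal gene, stood out at 947. Des (122), Myog (120.04) and Mylpf (113) were just above background, and Myh11 (93.1) and Myod1 (88.9) were not.

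HOX genes, which record position along the body axis, were above background in 22 of 38 cases (57.9%, near the 50.9% of all genes) and none was bright. The 5 brightest were Hoxa5 (962), Hoxa7 (954), Hoxd8 (867), Hoxb7 (864) and Hoxd9 (716), followed by Hoxd10 (688). Above the 99th percentile of the receptor probes were 5 of 10 Hoxa, 4 of 10 Hoxb, 1 of 9 Hoxc and 5 of 9 Hoxd genes. The share of all genes above it was 44.9%. Hoxa5, known for its part in lung development, read 962, 878 and 1685 on P, BM1st and BM2nd. Hoxc6 read 198, 861 and 962. Genes at the posterior end of the clusters went both ways. Hoxd10, Hoxa13 (178), Hoxc10 (119), Hoxd11 (116) and Hoxd13 (114) were above background, and Hoxa10 (87.6), Hoxa11 (97.2), Hoxb13 (86.2), Hoxc11 (94.99), Hoxc12 (97.8), Hoxc13 (100.5) and Hoxd12 (98.6) were not. Hoxc6 and these posterior genes other than Hoxd10 were named after their values were seen.

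Of 27 oncogenes and tumor suppressors with a named probe, 21 were above background (77.8%, against 50.9% of all genes) and 11 were bright (40.7%, against 12.3%). Ccnd1, for cyclin D1, read 11558, 7209 and 8427 with 3 of 3 probes above background. Nras read 4381, and Ctnnb1, for beta-catenin, read 4167. Cdkn1a, for the cell cycle inhibitor p21, read 4605, 5317 and 2874, and Mdm2, for the ligase that degrades p53, read 3891, 4813 and 2375. Both are known targets of p53. Myc read 1245, 1627 and 679. The 6 members within background were Cdkn2a (103), Cdkn2b (95.2), Mycn (95.04), Mycl (97.9), Braf (96.4) and Tert (94.2).

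Oncofetal and imprinted genes gave 9 of 17 above background (52.9%, near the 50.9% of all genes). Igf2bp3, an RNA-binding protein of embryonic tissue, read 1007, 619.9 and 766, with 5 of 5 probes above background on P. A pair of imprinted genes had signal on the parental array and were at or near background on the others: Grb10, an adaptor that dampens insulin signaling, read 403, 99.6 and 88.1, and Ndn, for necdin, read 298, 111 and 95.3. Igf2bp1 (303), Sox11 (272) and Peg3 (217) were also above background. Xist, the RNA that coats the inactive X chromosome, read 509, 580.3 and 239.5 with 4 of 4 probes above background. Of the Y-linked genes Uty read 115, 108 and 113 with 1 of 4 probes above background. Eif2s3y (108), Zfy2 (103), Zfy1 (98.4), Usp9y (97.5), Kdm5d (91.1) and Sry (90.9) lay within it.

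**Figure D2:**
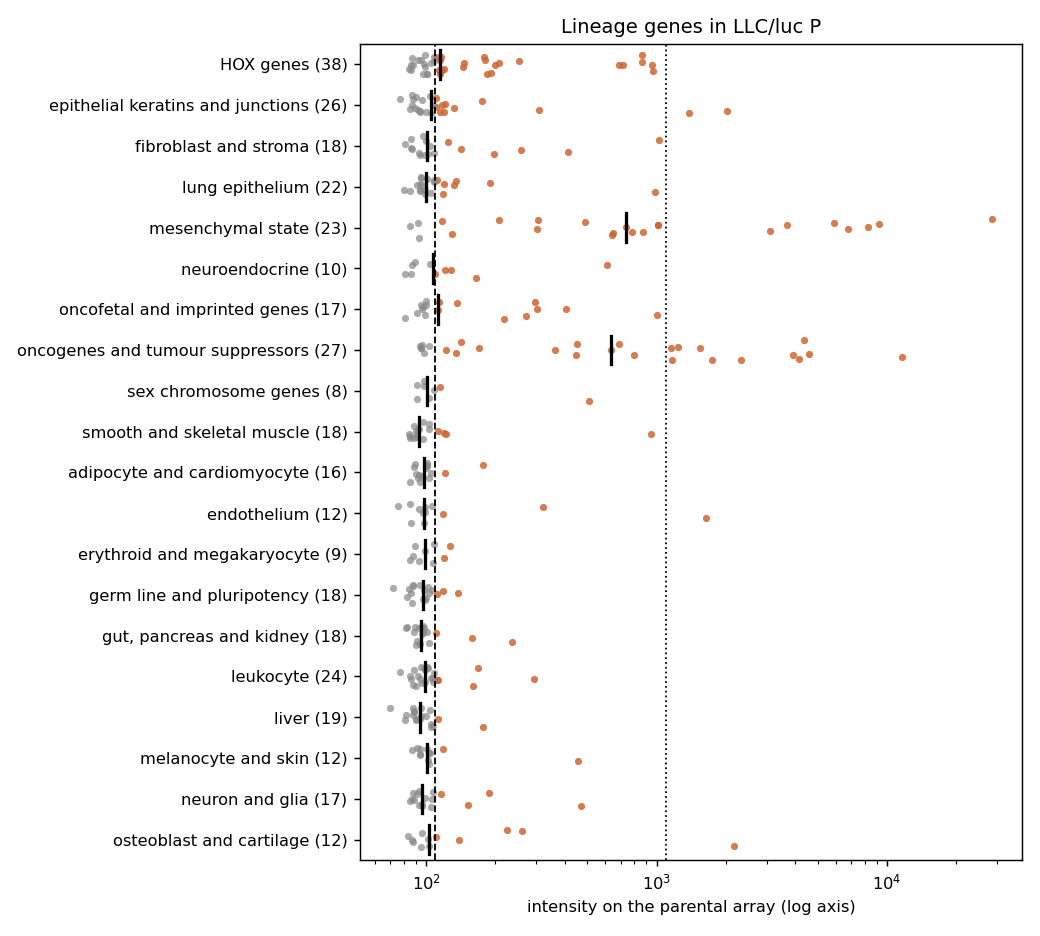
Intensity on the parental array of every listed gene with a named probe, by lineage list (number of genes in brackets), with genes above background in orange, others in gray, list medians as black bars, background dashed and 10 times background dotted. Mesenchymal genes and oncogenes extend far to the right with medians of 734 and 634, while the lung list and the 10 lists of other tissues stay near background except for single genes such as Sox9 and Egfl7.

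Secreted factors were above background in 70 of 165 cases (42.4%, against 50.9% of all genes) and bright in 14 (8.48%, against 12.3%). The factors with the highest intensity were Mif, the anti-angiogenic serpin gene Serpinf1, and Igfbp4, for a protein that binds insulin-like growth factors. Of 63 chemokines and cytokines, 22 were above background and 2, Mif and Cxcl1, were bright.

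Among the CC chemokines 5 of 18 had signal (27.8%, against 50.9% of all genes). Ccl2, which draws monocytes, read 713 on the parental array, against 2397 and 3737 on BM1st and BM2nd. Ccl7, a related monocyte attractant, read 358 with 2 of 2 probes above background, against 12628 and 8458. Ccl25 (389.9), Ccl27a (134) and Ccl11 (117) completed the group. Cxcl1, which draws neutrophils, was the brightest chemokine of the parental array at 3497, against 33698 and 38855. The unselected line thus carried signal of Cxcl1, Ccl2 and Ccl7 already, and lay lowest of the 3 arrays for each. Cx3cl1 (335), Cxcl15 (142), Cxcl12 (125) and Cxcl16 (121) were also above background. Cxcl12 is the stromal factor SDF-1 that the study names, and it read 125, 128 and 119.95 with 3 of 5 probes above background on P.

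Of 32 cytokines 12 were above background (37.5%, against 50.9% of all genes), and most of them by little. Mif read 31947, 29629 and 27856 with both probes above background. Il11, which acts on bone and connective tissue cells, read 706, 510.4 and 206. Csf1, the growth factor of macrophages and osteoclast precursors, read 607, 714 and 675, and Lif read 191, 308 and 260.02. Il13 was at 138. The inflammatory cytokines Il6 (99.5), Tnf (87.3) and Il1b (84.9), the granulocyte and macrophage factor Csf2 (95.8) and Tnfsf11 (97.9), for the osteoclast factor RANKL, lay within background and were named after their values were seen.

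Angiogenic genes had signal in 13 of 23 cases (56.5%, near the 50.9% of all genes), bright for 3 (13.0%, near 12.3%). Thbs2, for the anti-angiogenic thrombospondin-2, read 4969.6, 12315 and 6888. Vegfb read 3615, and Vegfa, the main growth factor of endothelium, read 3032, 3494 and 2012. Pdgfa (859) and Angptl6 (599) followed. Of 24 EGF, HGF, IGF and FGF family ligands and related factors, 14 were above background (58.3%, against 50.9% of all genes). Grn, for progranulin, read 4227, Bdnf 1404 with 4 of 6 probes above background, and Ptn, for pleiotrophin, 1243, against 5201 and 14580.2 on the sublines' arrays. Hbegf, a ligand of the EGF receptor, read 1031, 585 and 288, and Fgf7, a mesenchymal ligand for epithelium, read 975, 285 and 545. For both, the parental array held the highest value of the 3.

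TGF-beta, BMP and WNT ligands were above background in 9 of 29 cases (31.0%, against 50.9% of all genes). Bmp1, which despite its name is the protease that trims procollagen, read 4019. Wnt7b, a WNT ligand of lung epithelium, read 1679, 776 and 468 with both probes above background, highest on P. Tgfb1 (413), Tgfb3 (167) and Wnt5a (145) followed. Of 26 secreted antagonists and bone factors 12 had signal (46.2%, near the 50.9% of all genes). They were led by Serpinf1 at 18468, 19261 and 17862, Igfbp4 (7903), Cst3 (6529), for cystatin C, Stc1 (2254), for stanniocalcin-1, and Igfbp6 (953). The osteoclast inhibitor gene Tnfrsf11b (88.1) and the WNT antagonist gene Dkk1 (93.4) lay within background.

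Receptors were above background in 109 of 197 cases (55.3%, against 50.9% of all genes), and 17 were bright (8.63%, against 12.3%). Genes of tetraspanins, the thrombin receptor and caveolin were bright, Egfr was bright by a small margin, Insr and Igf1r lay below 10 times background, and no chemokine receptor passed the 99th percentile of the receptor probes.

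Of 43 receptor tyrosine kinases 23 had signal (53.5%, near the 50.9% of all genes). Ryk, a WNT receptor, read 3325, and Egfr read 1101, 495 and 1482 with 5 of 6 probes above background on P. Insr (1043), Epha2 (927) and Igf1r (828) completed the 5 brightest of the list. Kit (94.4), Met (102), Ret (97.8), Erbb3 (93.2) and Fgfr2 (98.4) lay within background. Among the chemokine receptors only Cx3cr1 (112) and Ccr7 (112) of 18 passed, both under the 99th percentile of the receptor probes and both within background on the other arrays. Cxcr4, the receptor for SDF-1 that the study names, read 96.7, 88.1 and 100.4. Ackr3 (76.1), Ccr1, Ccr2, Ccr3, Ccr4, Ccr6, Ccr8, Ccr9, Ccr10, Cxcr1, Cxcr2, Cxcr3, Cxcr5, Cxcr6 and Xcr1 ran from 74.0 for Ccr1 to 107 for Ccr6.

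Cytokine receptors gave 19 of 27 above background (70.4%, against 50.9% of all genes), but 1 bright gene (3.70%, against 12.3%). Tnfrsf12a, the receptor of the cytokine TWEAK, read 2878, 1652 and 1168. Tnfrsf10b (954), for the mouse TRAIL receptor, Ifngr1 (310.2), Tnfrsf1a (267) and Ifngr2 (242) followed. Of 33 TGF-beta, BMP, WNT and Notch receptors and their ligands 20 had signal (60.6%, against 50.9% of all genes). Tgfbr3 (1399.9), Tgfbr2 (1115), Acvr2b (873), Tgfbr1 (832) and Bmpr2 (786) led, so that both signaling TGF-beta receptors were present, although Tgfbr1 and Tgfbr2 each rested on 1 of 4 probes.

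Integrins, the receptors for matrix, were above background in 12 of 25 cases (48%, near the 50.9% of all genes). Itgb7 read 1018, 1904 and 1452, Itgb5 755, Itga3 636, Itga5 355 and Itga6 342. Itgb1, the beta chain shared by most matrix integrins, read 323 with both probes above background, and Itgav read 173. Itgb3 (103), Itga4 (99.7) and Itgb2 (101) lay within background. Itga4 and Itgae (121) are the partners of the beta 7 chain. Other surface receptors were above background in 20 of 27 cases (74.1%, against 50.9% of all genes) and bright in 10 (37.0%, against 12.3%). Cd63 (17075), F2r (10464), the thrombin receptor, Cav1 (8008), Cd81 (7482) and Vcam1 (4277) were the brightest, and Cd44, the hyaluronan receptor, read 2838 on the brightest of its 9 probes, of which 3 were above background.

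Of 24 immune surface genes 13 had signal (54.2%, near the 50.9% of all genes). B2m, the light chain of MHC class I, read 9914, 15881 and 12049, and the class I heavy chain H2-D1 read 4802, 5738 and 4069.8. H2-K1 read 327, and both heavy chains have near-identical relatives that their probes can read. Cd276 (965), an immune checkpoint ligand, Pvr (682), the poliovirus receptor homolog, and the peptide transporter Tap2 (476) followed, with its partner Tap1 at 96.9. Cd274, for PD-L1, read 249.96, 211 and 156. Of the MHC class II genes Ciita (98.7), H2-Aa (87.6) and H2-Ab1 (99.99) lay within background, and the invariant chain gene Cd74 was at 109.6.

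Ligands were then set beside a known receptor in 44 pairs, chosen after the values were seen. Both members were above background in 23 pairs, the ligand alone in 16, the receptor alone in 4 and neither in 1. Over the full lists 42.4% of secreted factors and 55.3% of receptors were above background, so these counts describe the pairs chosen. In 6 of the 23 pairs the receptor was under the 99th percentile of the receptor probes, namely Kdr, Cx3cr1, Tek, Csf3r and, with Csf1 and Il34, Csf1r. Pairs with both members present included Hbegf (1031) with Egfr (1101), Pdgfa (859) with Pdgfra (258), Wnt7b (1679) with Fzd5 (525), Tgfb1 (413) with Tgfbr2 (1115), Gas6 (138) with Axl (9236), and Il11 (706) with the shared signaling chain Il6st (188). Vegfa (3032) stood beside Flt1 (307) and a Kdr value near background (111). Pairs with signal of the ligand alone included Cxcl1 (3497) with Cxcr2 (88.5), Ccl2 (713) with Ccr2 (96.0), Cxcl12 (125) with Cxcr4 (96.7), Fgf7 (975) with Fgfr2 (98.4), Bdnf (1404) with Ntrk2 (93.9), and Lif (191) with Lifr (99.6). Bdnf and Lif each had another listed receptor above background, Ngfr (128) for Bdnf and Il6st (188) for Lif. The only pair with both within background was Hgf (98.8) with Met (102).

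Matrix genes were above background in 84 of 158 cases (53.2%, against 50.9% of all genes) and bright in 28 (17.7%, against 12.3%). Bright members were found for 4 of 18 basement membrane and other collagens, 5 of 17 laminins and their partners and 5 of 18 collagen processing genes. The chains of type I collagen, the main protein of bone and tendon, lay at background.

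Of 17 fibrillar and related collagens 8 had signal (47.1%, near the 50.9% of all genes), and 4 passed the 99th percentile of the receptor probes. Col5a1 (4793), Col16a1 (4669) and Col3a1 (1107) were bright, and Col11a2 (119) and Col2a1 (115) were just above background. Col1a1 read 96.0, 119.9 and 412 on P, BM1st and BM2nd. Col1a2, which passed background on P by a small margin, read 109.98, 107 and 104. Of 18 basement membrane and other collagens 9 had signal (50%, near the 50.9% of all genes). Col4a1 (4504) and Col4a2 (2769.8), the ubiquitous chains of type IV collagen, were bright, and Col4a3, Col4a4, Col4a5 and Col4a6 ran from 92.2 to 104. Col18a1, the source of endostatin, read 12188, and Col6a1 read 2252, 833 and 4792, highest on BM2nd. Col6a2 was at 390.3.

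Laminins and their partners split sharply: 8 of 17 were above background (47.1%, near the 50.9% of all genes). The lowest of these read 269, and the other 9 lay between 90.4 and 103. Hspg2, for perlecan, read 5391, Sparc 2734, Agrn, for agrin, 2539, Lamc1 2168 and Nid1 1871. Lama5 (888), Lamb1 (269), Lamb2 (316) and Lamc1 were the laminin chains with signal, while Lama1, Lama2, Lama4, Lamb3 and Lamc3 were within background. Laminins are trimers of an alpha, a beta and a gamma chain, and at least 1 chain of each kind had signal.

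Matrix glycoproteins were above background in 15 of 28 cases (53.6%, near the 50.9% of all genes). They were led by the TGF-beta binding protein genes Ltbp3 (3440.1) and Ltbp4 (765), Aebp1 (1665), Fbln1 (544) and Ltbp1 (519). Mgp, the matrix Gla protein that inhibits calcification, read 90.8, 185 and 1696. Of 28 proteoglycan and hyaluronan genes 9 had signal (32.1%, against 50.9% of all genes). Of these Gpc1 (9025), Sdc4 (1608), Hyal2 (1566), Ogn (1181) and Sdc2 (1096) were bright. Bgn, for biglycan, read 126, 654 and 1168, so biglycan, like lumican and decorin, was lowest on the parental array. Ogn went the other way, with 1181, 277 and 1153, highest on P.

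Proteases and their inhibitors had signal in 21 of 32 cases (65.6%, against 50.9% of all genes). Ctsb, for cathepsin B, read 11087, and Mmp14, the membrane-bound collagenase, 6222, each on 1 of 2 probes. The inhibitors Timp2 (3538) and Timp1 (1274) and the sheddase gene Adam17 (946) followed. Plau, for urokinase, read 841, 554 and 288, and Mmp13 read 479, 202 and 181, both highest on P. The gelatinases Mmp9 (112) and Mmp2 (95.4) were near or within background. Collagen processing gave 14 of 18 above background (77.8%, against 50.9% of all genes) with a median of 404. Serpinh1, the collagen chaperone HSP47, read 16615, P4hb 12280.00, Plod3 2926, Pcolce 2035 and Crtap 1674. Of the crosslinking enzymes Tgm2 (448) and Loxl4 (234) had signal, and Lox (104), Loxl1 (100.3) and Loxl3 (97.7) lay within background.

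**Figure D3:**
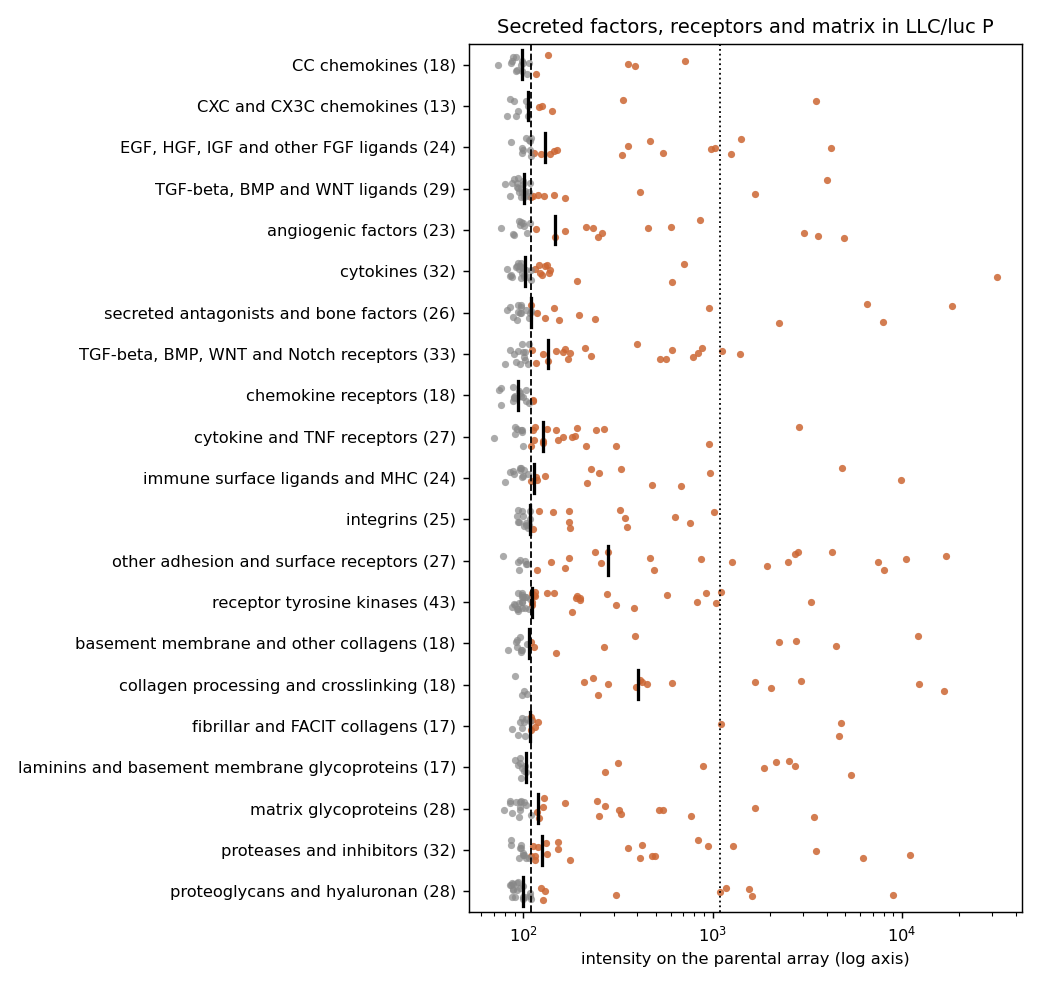
Intensity on the parental array of every listed secreted factor, receptor and matrix gene with a named probe, by list (number of genes in brackets), with genes above background in orange, others in gray, list medians as black bars, background dashed and 10 times background dotted. Collagen processing genes have the highest median (404) and chemokine receptors the lowest (93.7), with the highest chemokine receptor at 112.

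Metabolic genes were above background in 175 of 234 cases (74.8%, against 50.9% of all genes) and bright in 90 (38.5%, against 12.3%). The amino acid and stress response lists had the highest medians of the metabolic lists, and isozymes of general use were bright in glycolysis. The gluconeogenesis, glycogen and urea cycle list had signal in 7 of 19 cases (36.8%, against 50.9% of all genes) and no bright gene. Only 3 of its genes passed the 99th percentile of the receptor probes.

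In glycolysis 19 of 31 genes had signal (61.3%, against 50.9% of all genes). Gapdh (12399), Pkm (12049), Ldha (10099), Tpi1 (10000.5) and the glucose transporter gene Slc2a1 (3434) were the brightest. All 3 phosphofructokinase genes were present, with Pfkl at 2105, Pfkm at 1543 and Pfkp at 1042. Pgk1 read 3413, Aldoa 1931, Pgam1 989, Eno3 415, Hk1 282 and Slc2a3 218. Isozymes of single tissues went both ways. The muscle forms Pfkm and Eno3, the neuronal form Eno2 (608) and the neuronal transporter gene Slc2a3 had signal. Other forms of liver, muscle, heart, brain, blood cells or testis lay within background: Ldhb (109), Ldhc (89.4), Pklr (95.4), Pgk2 (95.3), Gapdhs (89.9), Pgam2 (84.0), Aldoc (89.98), Hk3 (96.8) and Slc2a2 (101). Slc2a4, the insulin-regulated transporter, was at 112. The lactate exporters Slc16a3 (118) and Slc16a1 (96.4) were near or within background. Hk2, Eno1 and Gpi1 had no probe with 1 gene name and were not analysed here.

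The citrate cycle had signal in 25 of 31 genes (80.6%, against 50.9% of all genes). Suclg1 (6996), Idh3g (5089.5), Idh3b (3752), Sdhc (3121) and Fh1 (1991) led. Respiratory isoforms gave 10 of 20 above background (50%, near the 50.9% of all genes). The general forms Cox4i1 (15498), Cox6a1 (10223), Cox6b1 (5888), Cox7a2 (459), Cox7b (206), Slc25a5 (10657) and Cycs (3365) had signal. Forms of testis, brown fat, heart, skeletal muscle or lung were within background, namely Cox4i2 (95.5), Cox6b2 (98.4), Cox7b2 (91.2), Cox8b (85.4), Cox8c (91.7), Slc25a4 (89.3), Slc25a31 (92.0), Cyct (79.4), Ucp1 (94.7) and Ucp3 (94.7). Muscle forms went both ways, since other muscle forms had signal. Cox6a2, the heart and muscle form of a cytochrome oxidase subunit, read 727 on P, against 297 and 127 on BM1st and BM2nd. Cox7a1 read 128, 118 and 176. Chchd10, a mitochondrial protein abundant in muscle, read 846, 285 and 106. Cox6a2 and Chchd10 were highest on the parental array.

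**Figure D4:**
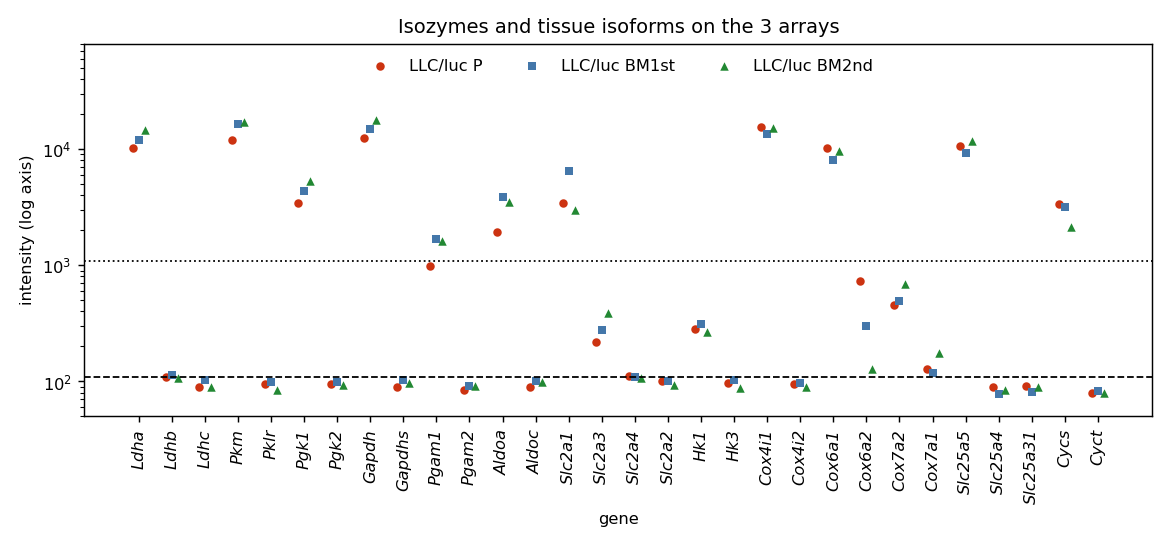
Intensity (log axis) of isozymes and tissue isoforms on the arrays of LLC/luc P, BM1st and BM2nd, 1 point per array, with the parental background dashed and 10 times background dotted. Forms of general use such as Ldha, Pkm and Cox4i1 are bright on each array and many forms of single tissues, such as Ldhc and Pgk2, lie near the dashed line, while Cox6a2 reads 727 on the parental, 297 on the BM1st and 127 on the BM2nd array.

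Amino acid synthesis had signal in 23 of 26 genes (88.5%, against 50.9% of all genes), 14 of them bright, with a median of 1348. Asns, for asparagine synthetase, read 12978, 12849 and 5420.4 on P, BM1st and BM2nd with 3 of 3 probes above background. Got2 (12225), Mthfd2 (9837), a mitochondrial enzyme of the folate cycle, Odc1 (8464), for polyamine synthesis, and Psat1 (6888), for serine synthesis, were the next brightest. Mthfd2 read 9813 and 3967 on the sublines' arrays. In the stress response list 22 of 23 genes were above background (95.7%) and 17 were bright (73.9%, against 12.3% of all genes), with a median of 2022. Hspa8 (11264), Cebpb (8975), Trib3 (8611), Atf4 (6923) and Hsp90b1 (6212) led. Atf4 is the transcription factor of the integrated stress response, which is set off by lack of amino acids or by unfolded protein, and Asns, Trib3, Chac1, Ddit3 and Atf5 are among its known targets. Trib3 read 8611, 3642 and 899.9, Ddit3 1823, 1474 and 665, Chac1 1832, 1953 and 713, and Atf5 5483, 3373 and 2321. Each of these 4 genes was lowest on BM2nd. Genes of unfolded protein signaling in the list went both ways. Xbp1 (4786), Herpud1 (4481), Pdia4 (1685) and Dnajb9 (1598) were bright. Calr (571), Sdf2l1 (448), the chaperone of the endoplasmic reticulum Hspa5 (289) and its relative Hyou1 (122) were above background but not bright. Hspa5 and Hyou1 had 1 probe each.

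Antioxidant and pentose phosphate genes had signal in 23 of 30 cases (76.7%, against 50.9% of all genes). Gpx4 (15002), Prdx4 (14760.5), Gsto1 (11713), Gstp1 (11569.9) and Prdx1 (11414) were the brightest. Named after their values were seen, Nqo1 read 340.5, 4629 and 717, Srxn1 1074, 5863 and 1278, and Slc7a11 441, 2032 and 271, each highest on BM1st. Lipid and sterol genes had signal in 26 of 31 cases (83.9%, against 50.9% of all genes). Elovl5 (4553), Acsl5 (3724), Scd1 (2925), Acly (2850.02) and Fdps (2265) were on top. The fatty acid synthesis genes Fasn (109.7) and Acaca (93.3) read near or within background. Proliferation genes had signal in 20 of 23 cases (87.0%, against 50.9% of all genes). Tubb5 (22233), H2az1 (10399), Mcm4 (4016), Mcm5 (2857) and H2bc4 (1943) were brightest. Mcm5 read 2857, 535 and 3728 and Top2a 1734, 498 and 2602, both lowest on BM1st. In the gluconeogenesis, glycogen and urea cycle list the members above background were led by Pygb (579.6), Asl (262), Ass1 (212), G6pc (118) and Fbp1 (112), and Pck1 (108), Cps1 (104) and Otc (97.1) were within background.

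Genes of other tissues made the low end. Of 157 genes in 10 such lists 31 were above background (19.7%, against 50.9% of all genes). Of the 157, 2 were bright (1.27%, against 12.3%), and the median was 97.2. The share above background was higher than the 6.08% of receptor genes. A gene with more probes can pass more often by its brightest probe. Of the 1249 receptor genes 1036 had 1 probe, while 68 of the 157 genes had 2 or more, so the shares are not alike. The 10 brightest were Sox9 (2160.1), Egfl7 (1637), Mbp (471), Krt10 (456), Ramp2 (321), Cd14 (294), Sox5 (260.5), Cdx2 (237), Phex (225) and Nefm (187).

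The brightest of these genes, Sox9, is a transcription factor of cartilage that distal lung progenitors also carry. It read 2160.1, 6746 and 4010.1 on P, BM1st and BM2nd with both probes above background, and its cartilage partner Sox5 read 260.5, 662 and 443. Phex, a gene of mineralizing cells, read 225, 611 and 149. The bone markers Bglap, for osteocalcin, and Sp7, for osterix, read 83.3 and 103, and Alpl (139) and Ibsp (111) were near background. Egfl7, an endothelial secreted gene, read 1637, 1156 and 1856, and Ramp2, a receptor partner for adrenomedullin, 321, 136 and 297. The markers of endothelium itself, Pecam1 and Cdh5, read 99.2 and 97.2, and Robo4 (118), Esam, Sox17, Vwf, Emcn, Sox18, Mmrn2 and Cldn5 ran no higher than Robo4.

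Leukocyte genes were above background in 5 of 24 cases (20.8%, against 50.9% of all genes). Cd14, the coreceptor for endotoxin on myeloid cells, read 294, 501 and 363. Arhgdib, a gene abundant in blood cells, read 169, 2479 and 2967, and Lyz1, for a lysozyme, 159, 3169 and 1190.4. Coro1a (113) and Csf3r (111) were near background. Ptprc, for CD45, read 102 and Cd3e read 101, both within background, so neither defining leukocyte marker was above background on the parental array. Neural genes had signal in 4 of 17 cases (23.5%, against 50.9% of all genes). These were Mbp (471) with 3 of 5 probes, Nefm (187), Map2 (152) and Syt1 (117), while Gfap (93.3) and Snap25 (88.6) had none.

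Liver genes had signal in 2 of 19 cases (10.5%, against 50.9% of all genes), Apoa2 (176) and Hpx (113). Alb read 95.3 and Apoa1 94.2, and Apob, Apoc3, Apoh, Cyp2e1, Cyp3a11, Cyp7a1, Fga, Fgb, Fgg, Hpd, Serpina1c, Tat, Tdo2, Trf and Ttr were within background too. Among erythroid and megakaryocyte genes Ppbp (127) and Epor (119) passed, and Hba-a1 (89.4), Gp9, Gp1bb, Klf1, Gata1, Slc4a1 and Alas2 did not. Of the fat and heart genes Pparg (176) and Lep (120.2) had signal, while Adipoq (103), Myh6 (92.0), Myh7, Nppa, Nppb, Tnni3, Actc1, Plin1, Plin4, Ryr2, Nkx2-5, Cidec, Cidea and Fabp4 lay within background.

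In the melanocyte and skin list only the keratins Krt10 (456) and Krt15 (119) passed, and Tyr (104), Dct (91.5), Pmel, Mitf, Mlana, Krt1, Krt71, Ivl, Tyrp1 and Lor did not. Of gut, pancreas and kidney genes Cdx2, the master regulator of intestine, read 237, 137 and 104, highest on P, and Slc12a1 (158) and Muc2 (109.9) were above background. Ins2 (101) and Umod (97.8) lay within it, as did Pax2, Aqp2, Cdx1, Pax8, Pdx1, Ptf1a, Lgr5, Gcg, Fabp2, Cela2a, Nphs1, Cpa1 and Vil1. Of germ line and pluripotency genes Pou5f1 (137), whose transcript has many pseudogene relatives, Dppa3 (118) and Zfp42 (111) passed. Ddx4 (106), Dazl (97.7), Nanog (88.1), Utf1, Dppa5a, Lin28a, Esrrb, Prm1, Tdgf1, Tex19.1, Zp3, Sycp3, Tnp1, Mael and Stra8 did not.

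Promoter composition went with intensity across genes, which are not independent replicates. In mammals many promoters lie in CG islands, stretches where CG dinucleotides escaped the loss that methylation causes elsewhere, and genes of general use commonly have such promoters, while genes of single tissues more often carry a TATA box. Windows of 300 bases, 250 before and 50 after the RefSeq start, were found for 15237 of the 19053 genes, and the 12655 genes with 1 window were used. A window was called CG-rich when its CG count over the count expected from its C and G content was above 0.6. Of all windows 51.6% were CG-rich and 13.3% held TATAAA on either strand.

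Among genes not above background 27.6% of 6331 windows were CG-rich. The share was 72.2% of 4763 for genes up to 10 times background and 86.2% of 1561 for bright genes. TATAAA ran the other way, at 18.6%, 8.23% and 7.75%. Over deciles of genes ordered by intensity, the CG-rich share went from 19.7% in the dimmest to 86.7% in the brightest, and the step was largest between deciles 6 and 7, from 50.6% to 75.2%, where intensity passed 136. Receptor genes, which set the background, had CG-rich windows in 0.473% of 1056 cases and TATAAA in 40.2%. Without them, 32.7% of the windows of genes not above background were CG-rich and 14.7% held TATAAA, against 13.3% of all windows.

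**Figure D5:**
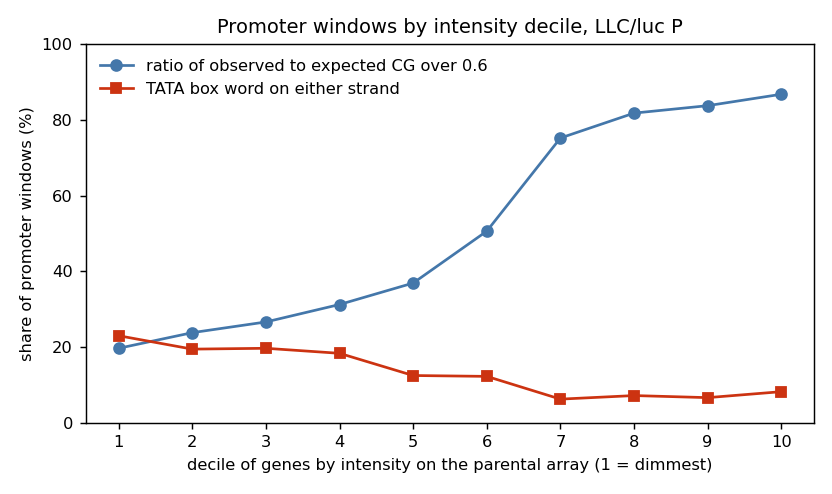
Share of promoter windows that were CG-rich (circles) and that held the TATA box word on either strand (squares), over deciles of 12655 genes ordered by parental intensity, 1265 or 1266 genes each. The CG-rich share goes from 19.7% to 86.7% and the TATA share from 23.0% to 8.21% between the dimmest and the brightest decile.

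Metabolic lists had CG-rich windows in 66.7% of 168 genes, receptors in 54.5% of 132, lineage lists in 49.6% of 123, matrix lists in 42.9% of 98, secreted factors in 36.9% of 103 and the lists of other tissues in 11% of 100. TATAAA was held by 32.0% of the secreted and 25% of the other-tissue windows. The 100 brightest genes with 1 window were CG-rich in 78% and held TATAAA in 16%. Cytosolic ribosomal protein genes were CG-rich in 88.4% of 43 windows, and 23.3% held CTTTC or CTTTT on the gene's strand within 10 bases of the start, against 3.89% of all windows. A pyrimidine stretch at the start is the known hallmark of these genes. Among single markers, Vim was not CG-rich at a ratio of 0.42, and Col3a1, bright at 1107, had a window with 0 CG dinucleotides. Conversely the germ line genes Ddx4 and Dazl, within background at 106 and 97.7, had CG-rich windows with ratios of 0.98 and 0.80. These matches describe letters in the windows and not bound sites.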

How the data were processed

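Total RNA of LLC/luc P, BM1st and BM2nd was hybridised to 1-color Illumina mouse bead arrays, 1 per line. The authors deposited 1 linear intensity for each of 45281 probes, made with GenomeStudio 2011.1 per the processing notes, with settings of background correction and normalization that, in the sources used here, were not given. The sorted values of the arrays differed by at most 0.274, from which quantile normalization was inferred. Probes were named from the platform annotation, updated through RefSeq gene IDs: 34885 had 1 gene, 18 several and 10378 none. Each gene took its brightest parental probe, so that genes with more probes can pass background more often. Background was the 95th percentile of Olfr and Vmn probes, and bright meant over 10 times background. Alternatives were the 99th percentile, Olfr probes alone, another choice of probe, the mean log2 intensity of probes, and at least 2 probes above background. The text names the 30 brightest genes, defining members, up to 5 brightest members of each list above background, all members of lists with fewer than 4 above, isozymes, the 10 brightest genes of other tissues, Cxcl12 and Lum, and others were chosen after their values were seen. Members and lists were chosen with earlier results of these data known. Of 1207 listed genes, 94 had no probe with 1 gene name. Python 3.11.15, numpy 2.4.6, pandas 2.3.3 and matplotlib 3.10.9 were used, and the steps were tested on simulated data. RefSeq promoter windows are from GRCm38.p6.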

Additional observations from a re-analysis of the deposited data

How the results depend on the processing

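The count of genes above background and the counts of the 6 groups of lists stayed within 1.5 times the reported count when background came from olfactory receptor probes alone and when the probe of a gene was picked by its mean log2 intensity on all 3 arrays. With the 99th percentile as background 8548 genes were above it, and the genes of other tissues gave 20 instead of 31 of 157. Receptors were then at 45.2%, against 44.9% of all genes. With the mean log2 intensity over all probes of a gene 1327 genes instead of 2335 were bright. Requiring at least 2 probes above background leaves only the 9171 genes with 2 or more probes. It gave 3595 genes above background (39.2%) and 408 bright genes (4.45%). Against that 39.2%, lineage gave 40 of 104 (38.5%), secreted 15 of 74 (20.3%) and receptors 37 of 114 (32.5%). Matrix gave 36 of 92 (39.1%), metabolism 68 of 120 (56.7%) and other tissues 10 of 68 (14.7%). The receptor share, above that of all genes in the main setting, was below it here. Of the 9171 genes 2330 had exactly 1 probe above background, so values of single probes need a second probe or assay. No paired analysis was possible because each line had 1 array. With so few arrays the values have no replicate error. Ranks compare intensities and not RNA amounts.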

Other observations

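Beyond the lists, families taken by symbol stem showed which kinds of genes filled both ends of the parental array, and they were chosen after the values were seen. Against 50.9% of all genes, subunits of ATP synthase were above background in 13 of 13 cases, complex I subunits in 33 of 34, cytosolic ribosomal proteins in 56 of 63 and proteasome subunits in 33 of 39. Ribosomal proteins made up 40 of the 100 brightest genes. At the other end lay bitter taste receptors, with 0 of 32 above background and a median of 90.02, keratin-associated proteins with 2 of 42, beta-defensins with 4 of 41, protocadherins with 9 of 65 and cytochrome P450 genes with 9 of 65. Potassium channels gave 16 of 88 and zinc finger genes 186 of 304, of which 9 were bright. Families near the share of all genes were solute carriers with 150 of 327, SOX genes with 9 of 19 and FOX genes with 21 of 44.

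Single genes stood apart from their families. Rhox5, an X-linked homeobox gene known from placenta, testis and tumor lines, read 20772, 17249 and 15881 on P, BM1st and BM2nd and was among the 100 brightest genes, while 2 of 9 Rhox genes were above background. Foxp3, the transcription factor of regulatory T cells, read 554, 448 and 477 with 2 of 4 probes above background, beside Ptprc (102) and Cd3e (101) within background. Of the SOX genes Sox12 (983) and Sox4 (547) followed Sox9 (2160.1). The near-identical histone H2A genes, whose probes do not separate the copies with certainty, had high parental values, with H2ac10 at 23267, 9559 and 32642 and H2ac24 at 21271, 4613 and 32459, each lowest on BM1st.

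Probes with no gene name were not used for any list. Of 10378 such probes 2615 (25.2%) were above background and 474 were above 10 times background, against 42.7% above background among the probes with 1 gene name.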
